A study of Homo sapiens with 8 samples.

Results

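Interferon-stimulated genes are the genes a cell switches on after interferon binds its receptor. The 39 genes described here were given as a list of names, 38 of them had at least 1 probe on the array (54 probes), and 37 had a probe that passed the filters, among 11204 genes with such a probe. IFI27 had no matched probe, and both probes of HERC6 were well above background in 0 of the 8 channels. L1236 is a Hodgkin lymphoma cell line rich in the microRNA miR-155. It had been transduced with the empty retroviral vector pMSCV-PIG (EV) or with a vector carrying a miR-155 sponge, a transcript with repeated binding sites that competes for miR-155, and GFP+ cells had been sorted. From each cell population the total RNA (T fraction) and the RNA precipitated with an antibody against Ago2 (IP fraction) were labelled with Cy3 and with Cy5, giving 4 two-colour arrays and 8 channels. The 4 groups, EV T, EV IP, sponge T and sponge IP, thus held 1 RNA sample each, all from the same transduced cell line, so a difference between groups has no replicates behind it and none was tested.

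Type I and type III interferons act through receptors that activate the kinases JAK1 and TYK2, which phosphorylate transcription factors such as STAT2. STAT2 joins IRF9 in a complex that binds the interferon-stimulated response element (ISRE), whereas the response to interferon gamma runs through the GAS element. The induced genes include RNA sensors, nucleases and their activators, GTPases, membrane proteins that hinder viral entry or release, and regulators that sustain or stop the response. Ago2 is the protein that carries a microRNA to its target transcripts, so IP signal divided by T signal (IP/T ratio) describes how strongly a transcript came down with Ago2 relative to the other transcripts. Each ± is the SD over the 2 dyes, or over the 2 dye orientations for an IP/T ratio. It covers labelling and hybridisation and leaves out the variation between cultures and precipitations.

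The sequences that define the comparison are that of the microRNA bound by the sponge and those of the interferon elements upstream of members described below. They are shown with RefSeq coordinates on assembly GRCh38.p14. The mature miR-155-5p (chr21:25573983-25574006, plus strand) is printed with its seed, bases 2 to 8, in capitals. The promoter stretches are 40 bases from upstream of the annotated start, 5′ to 3′ on the strand of the gene, with in capitals the ISRE core GAAANNGAA or its reverse complement in ISG15, IFIT1, IFIT5 and BST2, and the GAS motif TTCNNNGAA in IRF1 and IRF9.
miR-155-5p: uUAAUGCUaaucgugauagggguu
ISG15, chr1:1013372-1013411, plus strand: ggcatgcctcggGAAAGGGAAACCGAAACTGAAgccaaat
IFIT1, chr10:89392498-89392537, plus strand: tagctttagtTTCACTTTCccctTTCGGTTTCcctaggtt
IFIT5, chr10:89414519-89414558, plus strand: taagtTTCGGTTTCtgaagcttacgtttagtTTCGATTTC
BST2, chr19:17405736-17405775, minus strand: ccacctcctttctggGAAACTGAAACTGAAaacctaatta
IRF1, chr5:132490874-132490913, minus strand: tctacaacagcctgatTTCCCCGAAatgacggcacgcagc
IRF9, chr14:24161185-24161224, plus strand: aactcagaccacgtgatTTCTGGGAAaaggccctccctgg

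A promoter window (250 bases before to 50 after a start) was given for 31 members. On either strand the ISRE core was found in 22 of them (71.0%), against 9.86% of 27305 genes with a window. The GAS motif was found in 10 members (32.3%), against 9.38% of genes, and the motifs overlap in some windows, as in BST2. STAT2, DDX58, HERC6 and XAF1 held neither motif in this window. IRF9 and IRF1, which had the GAS motif without the ISRE core, and IFIT5, which had the ISRE core without the GAS motif, were the 3 members enriched in the IP fraction below. ISG15, whose stretch shows 3 overlapping copies of the ISRE core, was among the depleted ones. A match describes letters in a window and not a bound site.

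The labelled cell type was checked first. All 7 marker genes of the Hodgkin line had a kept probe, 4 of 5 B lineage markers did, and 0 of 4 T cell markers did. Of the T cell markers, TRAC had no matched probe. MS4A1, CD3D, CD3G, LYZ and EPCAM were well above background in 0 channels, while 2 of 4 myeloid and 2 of 3 epithelial markers were kept. CD3E, a T cell marker, and ITGAM, a myeloid marker, were well above background in all 8 channels but failed the dye filter. Mature miR-155 is not measured on this array, so the sponge could not be checked here. The study reported only a mild loss of miR-155 targets from the IP fraction of these sponge cells. It proposes that the sponge left part of the very abundant miR-155 free. Between 61.0% and 65.7% of spots were well above background in 7 channels, and 54.1% in sponge T labelled with Cy5, where 35 of the 37 kept members were detected against 37 in each other channel.

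Few interferon-stimulated genes, 3 of the 37, were enriched in the IP fraction. How far this lay below the share of all genes depended on the background correction. Their median log2 IP/T ratio in EV cells was -0.36 ± 0.15, against -0.16 ± 0.026 over all 11204 genes, and 24 of the 37 members (64.9%) lay below 0, against 55.9% of all genes. In sponge cells the median was -0.45 ± 0.27, against -0.14 ± 0.044 over all genes. With an IP/T ratio of at least 2, the study's definition of enrichment, 3 members were enriched in EV cells (8.11%, against 18.1% of all genes), and the same 3 in sponge cells (8.11%, against 17.7%). A ratio of 0.5 or lower was found for 12 members in EV cells (32.4%, against 18.7%) and for 11 in sponge cells (29.7%, against 17.4%). The depleted members in both cell populations were ISG15, ISG20, IRF7, IFI35, IFI6, IFITM2, MX1, MX2, OAS1, OAS3 and OASL, and HERC5 passed the limit in EV cells alone. These depleted counts moved with the background correction. After normexp correction they fell to 6 and 5 with quantile normalisation (6.97% and 6.07% of all genes), or to 4 in either cell population with loess and Aquantile (4.95% and 4.64% of all genes), when ISG15, ISG20, IRF7 and IFI35 remained. The enriched members stayed at 3, but the share of all genes enriched came close to theirs. It was 9.56% in EV and 8.83% in sponge cells with normexp and quantile normalisation, and 11.0% and 9.02% with loess and Aquantile.

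**Figure D1:**
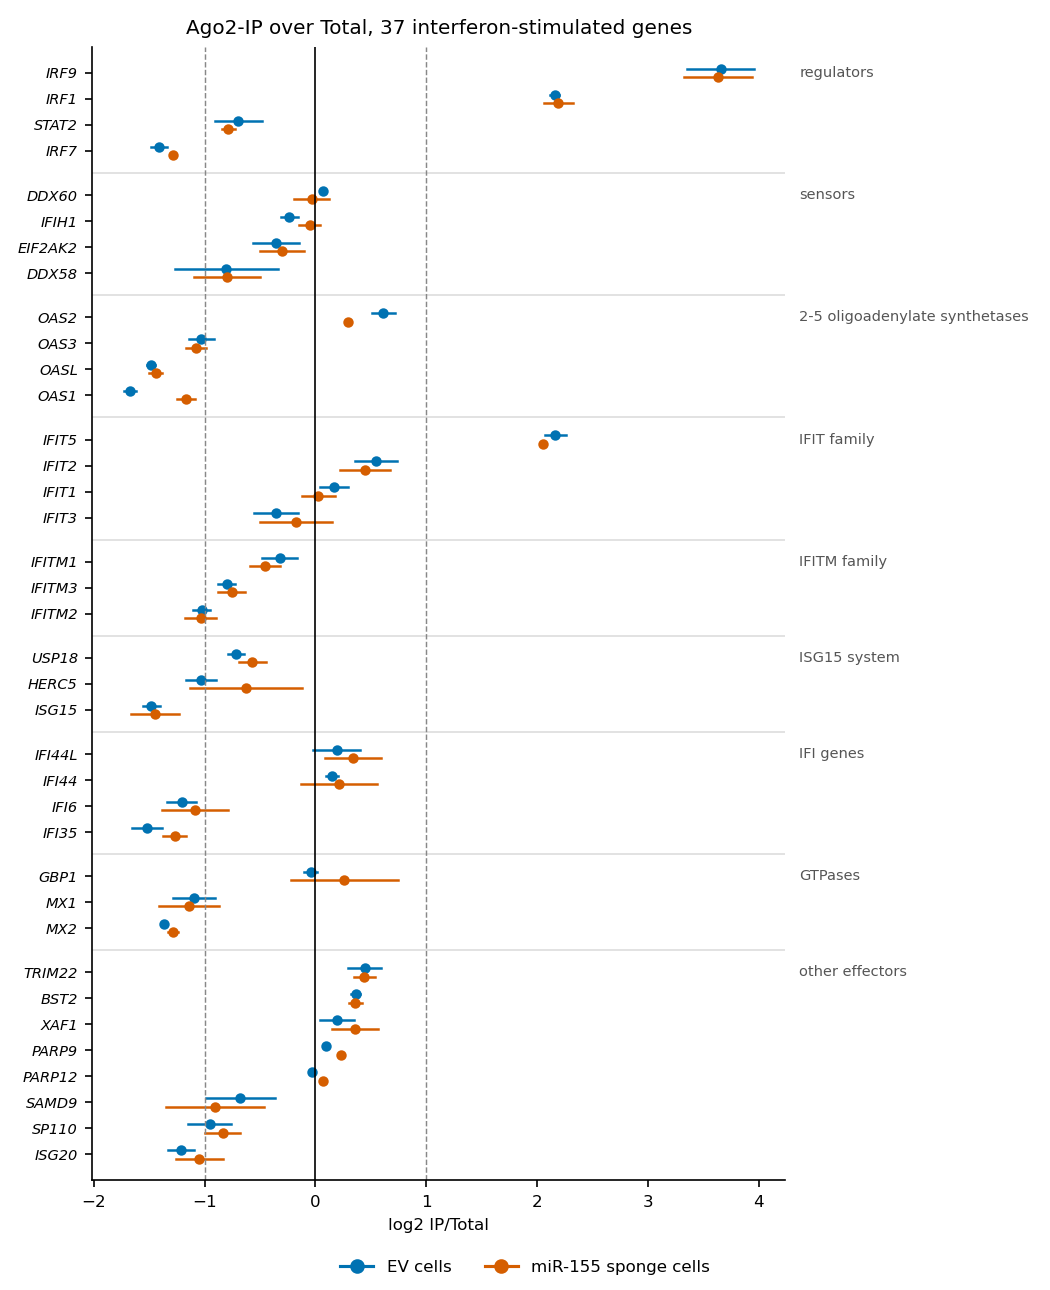
Log2 IP/Total of the 37 members with a kept probe, grouped by role, in EV cells (blue) and miR-155 sponge cells (orange). Points are the mean of both dye orientations, bars span the 2 orientation values, and dashed lines mark 2-fold; IRF9, IRF1 and IFIT5 lie beyond 2-fold on the right and 12 members beyond 2-fold on the left in EV cells.

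Among the regulators, which control transcription of the others, the members lay at both ends. IRF9, the DNA-binding partner of STAT2, had the highest IP/T ratio of all members. Its log2 signal (quantile normalised) was 11.34 in Cy3 and 11.63 in Cy5 in EV T, 14.98 and 15.29 in EV IP, 11.35 and 11.69 in sponge T, and 15.02 and 15.29 in sponge IP. Every IP channel lay above every T channel, and the log2 IP/T ratio was 3.66 ± 0.43 in EV and 3.63 ± 0.43 in sponge cells, corresponding to ratios of 12.6 and 12.4. IRF1, a transcription factor induced by interferon gamma, measured 10.98 and 10.87 in EV T, 13.07 and 13.10 in EV IP, 10.92 and 10.88 in sponge T, and 13.21 and 12.98 in sponge IP. Its IP and T channels did not overlap either, with a log2 IP/T ratio of 2.16 ± 0.058 in EV and 2.19 ± 0.19 in sponge cells.

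IRF7, which amplifies the production of type I interferon, lay on the other side. Its signals were 12.62 and 12.63 in EV T, 11.29 and 11.13 in EV IP, 12.74 and 12.75 in sponge T, and 11.47 and 11.44 in sponge IP. All T channels lay above all IP channels, and the log2 IP/T ratio was -1.41 ± 0.10 in EV and -1.29 ± 0.0091 in sponge cells. STAT2, the partner of IRF9, had a dim signal, 6.88 and 7.34 in EV T, 6.44 and 6.39 in EV IP, 7.41 and 7.26 in sponge T, and 6.41 and 6.69 in sponge IP. Its log2 IP/T ratio was -0.70 ± 0.30 in EV and -0.79 ± 0.088 in sponge cells.

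Of the IFIT proteins, which bind viral RNA, only IFIT5 passed 2-fold enrichment by a kept probe in this family of 4. The IFIT5 probe of highest signal (A_24_P30194) measured 9.36 and 9.48 in EV T, 11.56 and 11.61 in EV IP, 9.38 and 9.25 in sponge T, and 11.29 and 11.46 in sponge IP. Its IP channels all exceeded its T channels, and the log2 IP/T ratio was 2.17 ± 0.13 in EV and 2.06 ± 0.028 in sponge cells. The second IFIT5 probe (A_23_P63668) gave 2.41 ± 0.12 and 2.22 ± 0.22, so both probes of the gene showed the enrichment.

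IFIT2 measured 11.03 and 10.83 in EV T, 11.56 and 11.39 in EV IP, 11.30 and 11.05 in sponge T, and 11.72 and 11.52 in sponge IP, a log2 IP/T ratio of 0.55 ± 0.27 in EV and 0.44 ± 0.32 in sponge cells. A further IFIT2 probe (A_24_P304071) failed the dye filter. Its log2 IP/T ratio, 1.38 ± 0.60 in EV and 1.44 ± 1.1 in sponge cells, was past 2-fold but was not counted. IFIT1 measured 10.19 and 9.97 in EV T, 10.27 and 10.23 in EV IP, 10.40 and 10.22 in sponge T, and 10.39 and 10.28 in sponge IP, so its T and IP channels overlapped. The log2 IP/T ratio was 0.17 ± 0.18 in EV cells for IFIT1 and -0.35 ± 0.28 for IFIT3.

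**Figure D2:**
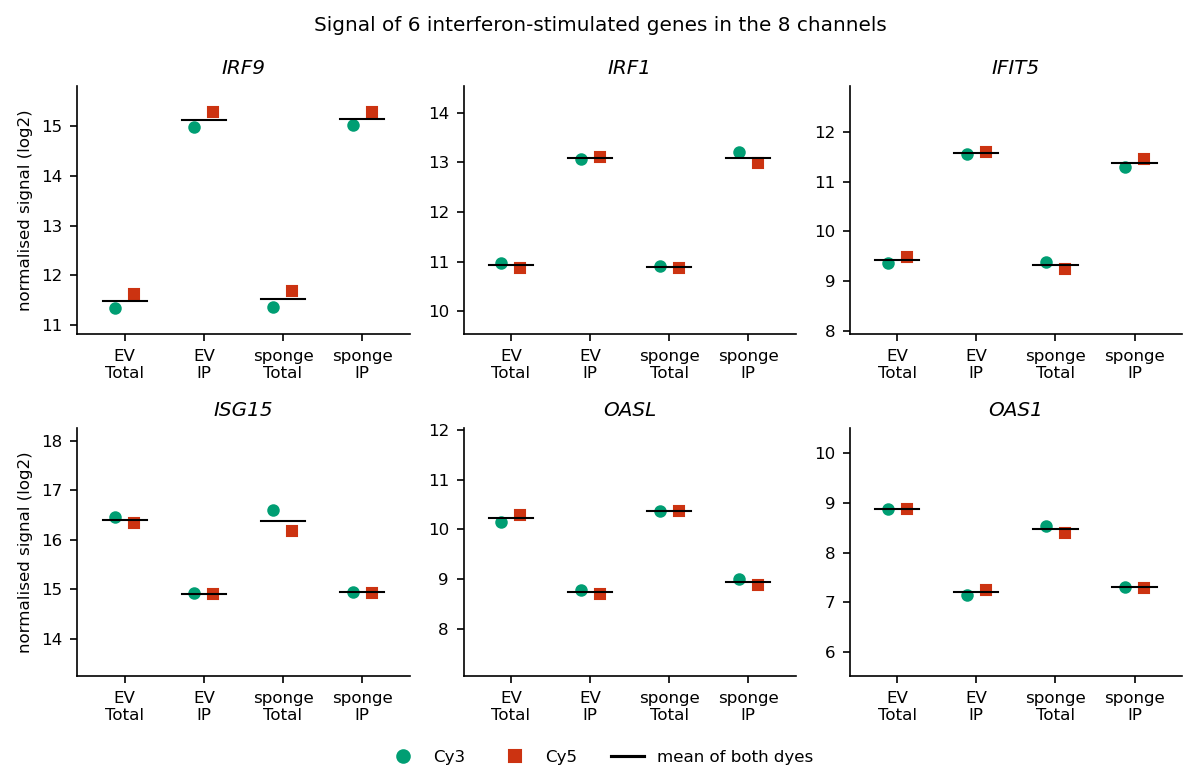
Quantile-normalised log2 signal of 6 members in the 8 channels (circles Cy3, squares Cy5, lines the mean of both dyes); each panel spans 5 log2 units, and levels are not comparable between panels because probes differ. IP lies above T for IRF9, IRF1 and IFIT5 and below T for ISG15, OASL and OAS1, in EV and in sponge cells.

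The oligoadenylate synthetases, which make the second messenger that activates the nuclease RNase L, had a median log2 IP/T ratio of -1.26 ± 0.11 in EV cells. Of the 4, 3 were depleted at least 2-fold, against 18.7% of all genes. After normexp correction the median was -0.41 with quantile normalisation and -0.34 with loess and Aquantile. In neither setting did a member of the family pass 2-fold depletion. OAS1 had the lowest ratio of all members in EV cells. It measured 8.88 in both dyes of EV T, 7.15 and 7.26 in EV IP, 8.54 and 8.40 in sponge T, and 7.31 and 7.28 in sponge IP. All T channels exceeded all IP channels, and the log2 IP/T ratio was -1.68 ± 0.076 in EV and -1.17 ± 0.12 in sponge cells. After normexp correction of the background the size of this depletion was smaller, down to -0.49 in EV and -0.18 in sponge cells.

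OASL, a family member without synthetase activity, measured 10.15 and 10.29 in EV T, 8.77 and 8.71 in EV IP, 10.38 in both dyes of sponge T, and 9.00 and 8.88 in sponge IP. Its log2 IP/T ratio was -1.48 ± 0.056 in EV and -1.44 ± 0.085 in sponge cells, and it too shrank with normexp correction, to -0.62 and -0.47. OAS2 was the exception of the family. It measured 7.71 and 7.86 in EV T, 8.36 and 8.43 in EV IP, 7.87 and 7.97 in sponge T, and 8.25 and 8.18 in sponge IP, a log2 IP/T ratio of 0.61 ± 0.15 in EV and 0.29 ± 0.028 in sponge cells. Its second probe (A_24_P343929) lay below 0, at -0.19 ± 0.11 and -0.32 ± 0.24. OAS3 had a ratio of -1.03 ± 0.16 in EV cells by its brighter probe and -0.52 ± 0.043 by the other, and passed 2-fold in 8 of 14 alternative ways of processing the data.

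The ISG15 system attaches the small ubiquitin-like protein ISG15 to other proteins (HERC5) and removes it (USP18). Its 3 measured members all lay below 0 in log2 IP/T ratio in both cell populations. With normexp, loess and Aquantile, 2 of 3 did so in sponge cells, HERC5 being at 0.016. Of all genes, 55.9% lay below 0 in EV cells and 6184 of 11204 in sponge cells. The median of the 3 members in EV cells was -1.03 ± 0.19. After normexp correction it was -0.68 with quantile normalisation and -0.50 with loess and Aquantile. ISG15 itself measured 16.46 and 16.33 in EV T, 14.92 and 14.91 in EV IP, 16.60 and 16.18 in sponge T, and 14.95 and 14.93 in sponge IP. T and IP did not overlap, the log2 IP/T ratio was -1.48 ± 0.10 in EV and -1.45 ± 0.30 in sponge cells, and depletion passed 2-fold in 14 of 14 alternatives in either cell population.

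USP18 measured 13.35 and 13.43 in EV T, 12.64 and 12.70 in EV IP, 13.48 and 13.57 in sponge T, and 12.88 and 13.04 in sponge IP, with log2 IP/T ratios of -0.72 ± 0.11 and -0.57 ± 0.17. HERC5 measured 7.96 and 7.89 in EV T, 6.99 and 6.78 in EV IP, 8.24 and 7.49 in sponge T, and 7.37 and 7.11 in sponge IP. The dyes of HERC5 lay far apart in sponge T, and its log2 IP/T ratio of -1.03 ± 0.19 in EV cells stood against -0.62 ± 0.71 in sponge cells.

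Among the IFITM proteins, which hinder the fusion of viruses with cell membranes, all 3 members lay below 0 in log2 IP/T ratio in both cell populations. Of all genes, 55.9% lay below 0 in EV cells and 6184 of 11204 in sponge cells. The median of the 3 members was -0.80 ± 0.11 in EV and -0.76 ± 0.17 in sponge cells. IFITM2 alone passed 2-fold depletion, at -1.03 ± 0.11 in EV cells. Of the dynamin-like GTPases that restrict viruses, MX1 had a log2 IP/T ratio of -1.10 ± 0.27 and MX2 of -1.37 ± 0.023 in EV cells. MX2 measured 10.52 in both dyes of EV T, 9.14 and 9.17 in EV IP, 10.47 and 10.57 in sponge T, and 9.24 and 9.23 in sponge IP, with no overlap between T and IP.

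The genes named for interferon induction divided into a low and a higher pair. IFI35, which forms a complex with NMI, measured 12.63 and 12.34 in EV T, 10.96 and 10.98 in EV IP, 12.44 and 12.12 in sponge T, and 10.96 and 11.06 in sponge IP, and its log2 IP/T ratio was -1.52 ± 0.19 in EV and -1.27 ± 0.15 in sponge cells. IFI6, a mitochondrial and endoplasmic reticulum protein, had -1.21 ± 0.19 and -1.09 ± 0.42. IFI44 and IFI44L had 0.15 ± 0.080 and 0.19 ± 0.30 in EV cells. The members depleted at least 2-fold in EV cells thus came from 7 of the 9 role groups in the main setting. With normexp, loess and Aquantile only IFI35, ISG15, ISG20 and IRF7 remained, with no oligoadenylate synthetase, IFITM protein or GTPase among them.

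Of the cytoplasmic RNA sensors, RIG-I (DDX58), MDA5 (IFIH1), DDX60 and PKR (EIF2AK2), none passed 2-fold either way. The median log2 IP/T ratio of these 4 was -0.30 ± 0.20 in EV cells. DDX58 measured 8.70 and 8.31 in EV T, 7.97 and 7.43 in EV IP, 8.84 and 8.78 in sponge T, and 8.28 and 7.74 in sponge IP, with a log2 IP/T ratio of -0.80 ± 0.65 in EV cells, a spread between orientations nearly as large as the value.

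The remaining 8 effectors ranged in log2 IP/T ratio from -1.22 to 0.44 in EV cells. The lowest was ISG20, an exonuclease, with 15.44 and 15.31 in EV T, 14.21 and 14.10 in EV IP, 15.68 and 15.39 in sponge T, and 14.56 and 14.42 in sponge IP, and a ratio of -1.22 ± 0.17 in EV and -1.05 ± 0.30 in sponge cells. The highest was TRIM22, a ubiquitin ligase, with 8.75 and 8.90 in EV T, 9.20 and 9.34 in EV IP, 8.69 and 8.47 in sponge T, and 9.00 and 9.03 in sponge IP, and a ratio of 0.44 ± 0.21 and 0.44 ± 0.13. For ISG20 the T channels and for TRIM22 the IP channels were the higher ones, without overlap.

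For 9 members more than 1 probe passed the filters, and in 0 of them did the probes differ by over 2-fold in EV IP/T ratio. The widest gap was that of OAS2.

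**Figure D3:**
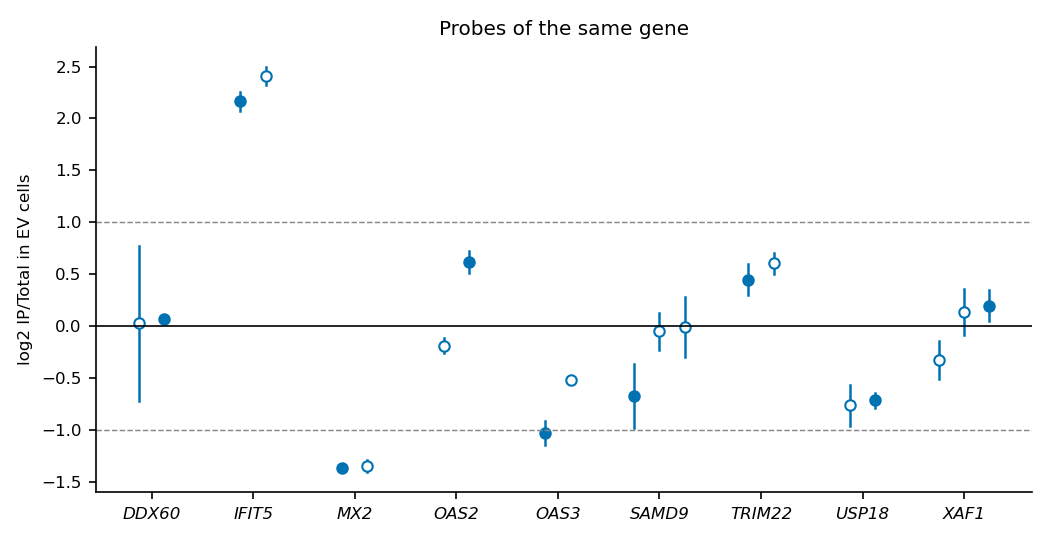
Log2 IP/Total in EV cells for the 9 members with several kept probes (filled points, the probe of highest signal, used for the gene; open points, other probes; bars span the 2 dye orientations). Both IFIT5 probes lie above 2 and both MX2 probes below -1, while those of OAS2, OAS3, SAMD9 and XAF1 spread further or cross 0.

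The level of the interferon-stimulated genes in the T fraction was compared between sponge and EV cells, to see whether the sponge went with a different interferon response. Because the study reported only a mild effect of the sponge, the values do not show how the members respond to loss of miR-155. The median log2 difference, sponge minus EV, was -0.010 ± 0.057 over the 37 members and -0.010 ± 0.028 over all genes. None of the members was higher by 1.5-fold or more (0, against 1.09% of all genes), and 1 was lower, GBP1 (2.70%, against 0.875%). In both dyes, 12 members were higher (32.4%, against 29.3% of all genes) and 14 lower (37.8%, against 31.9%). In RNA pooled from many sorted cells, fewer cells expressing a gene and less RNA per cell cannot be told apart.

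GBP1, a guanylate-binding GTPase, is named here because it was the single member past this limit, a choice made after its values were seen. It measured 7.66 and 7.68 in EV T, 7.58 and 7.68 in EV IP, 7.30 and 6.85 in sponge T, and 7.60 and 7.07 in sponge IP. The sponge T channel in Cy5 was not well above background, and the log2 difference in T was -0.60 ± 0.33. With Cy3 alone the difference did not reach 1.5-fold, and a filter requiring detection in all 8 channels removed the gene.

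Among the other members lower in sponge T, XAF1, which binds the apoptosis inhibitor XIAP, was the lowest of those detected throughout. XAF1 measured 10.96 and 10.74 in EV T and 10.60 and 10.23 in sponge T, a difference of -0.44 ± 0.10, and 11.09 and 11.01 in EV IP and 10.79 and 10.75 in sponge IP, a difference of -0.28 ± 0.031. Sponge channels were the lower ones in each fraction without overlap, and the 2 further probes also had negative differences, -0.39 and -0.13 in T and -0.39 and -0.38 in IP.

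OAS1 followed with a difference of -0.41 ± 0.098 in T and 0.096 ± 0.097 in IP. IFI44 measured 9.47 and 9.41 in EV T, 9.62 and 9.57 in EV IP, 9.33 and 8.86 in sponge T, and 9.42 and 9.20 in sponge IP. Its differences were -0.34 ± 0.29 in T and -0.28 ± 0.12 in IP, with the 2 sponge T dyes well apart. The related IFI44L measured 12.26 and 12.02 in EV T, 12.42 and 12.24 in EV IP, 11.98 and 11.68 in sponge T, and 12.27 and 12.06 in sponge IP, giving -0.31 ± 0.039 in T and -0.16 ± 0.018 in IP.

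SAMD9, an antiviral factor, measured 10.25 and 9.92 in EV T, 9.55 and 9.27 in EV IP, 10.18 and 9.42 in sponge T, and 8.95 and 8.83 in sponge IP. It had the largest difference of any member in the IP fraction, -0.52 ± 0.12, beside -0.29 ± 0.31 in T. Its other kept probes also lay below 0 in IP (-0.68 and -0.34) but on both sides of 0 in T (0.048 and -0.47). For TRIM22 the differences were -0.25 ± 0.27 in T and -0.25 ± 0.080 in IP. Of the 8 effectors outside the named families 7 had a difference in T below 0, against 52.4% of all genes, with a median of -0.14 ± 0.068, and that of SP110 was -0.0012 (6 below 0 with scaling to the 75th percentile or normexp and quantile normalisation, and 5 with loess and Aquantile).

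The largest positive differences in T were small. DDX58 was higher by 0.31 ± 0.23 in T and 0.31 ± 0.00065 in IP. This fell to 0.048 and 0.069 with normexp and quantile normalisation. IFIT2 was higher by 0.25 ± 0.036 in T and 0.15 ± 0.014 in IP, and IFIT1 by 0.23 ± 0.019 and 0.086 ± 0.053. For STAT2 the difference of 0.22 ± 0.44 in T was smaller than its spread.

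In the IP fraction, the median difference was 0.044 over the members after averaging the dyes, 0.029 with Cy3 alone and 0.027 with Cy5 alone, against 0.0030 over all genes. The members past 1.5-fold numbered 0 in either direction, against 0.625% of all genes higher and 0.384% lower. In both dyes 19 members were higher (51.4%, against 37.5% of all genes) and 13 were lower (35.1%, against 36.4%). The 3 measured members of the ISG15 system were all higher in both dyes, HERC5 by 0.35 ± 0.033, USP18 by 0.29 ± 0.064 and ISG15 by 0.028 ± 9.4e-05. With normexp and quantile normalisation HERC5 was at 0.046, and the median of the 3 went from 0.29 to 0.10. ISG20 was higher by 0.33 ± 0.026 in IP and 0.17 ± 0.11 in T, and IRF7 by 0.24 ± 0.091 and 0.12 ± 0.0034. IFIT5 differed by -0.21 ± 0.077 in IP and -0.10 ± 0.18 in T.

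**Figure D4:**
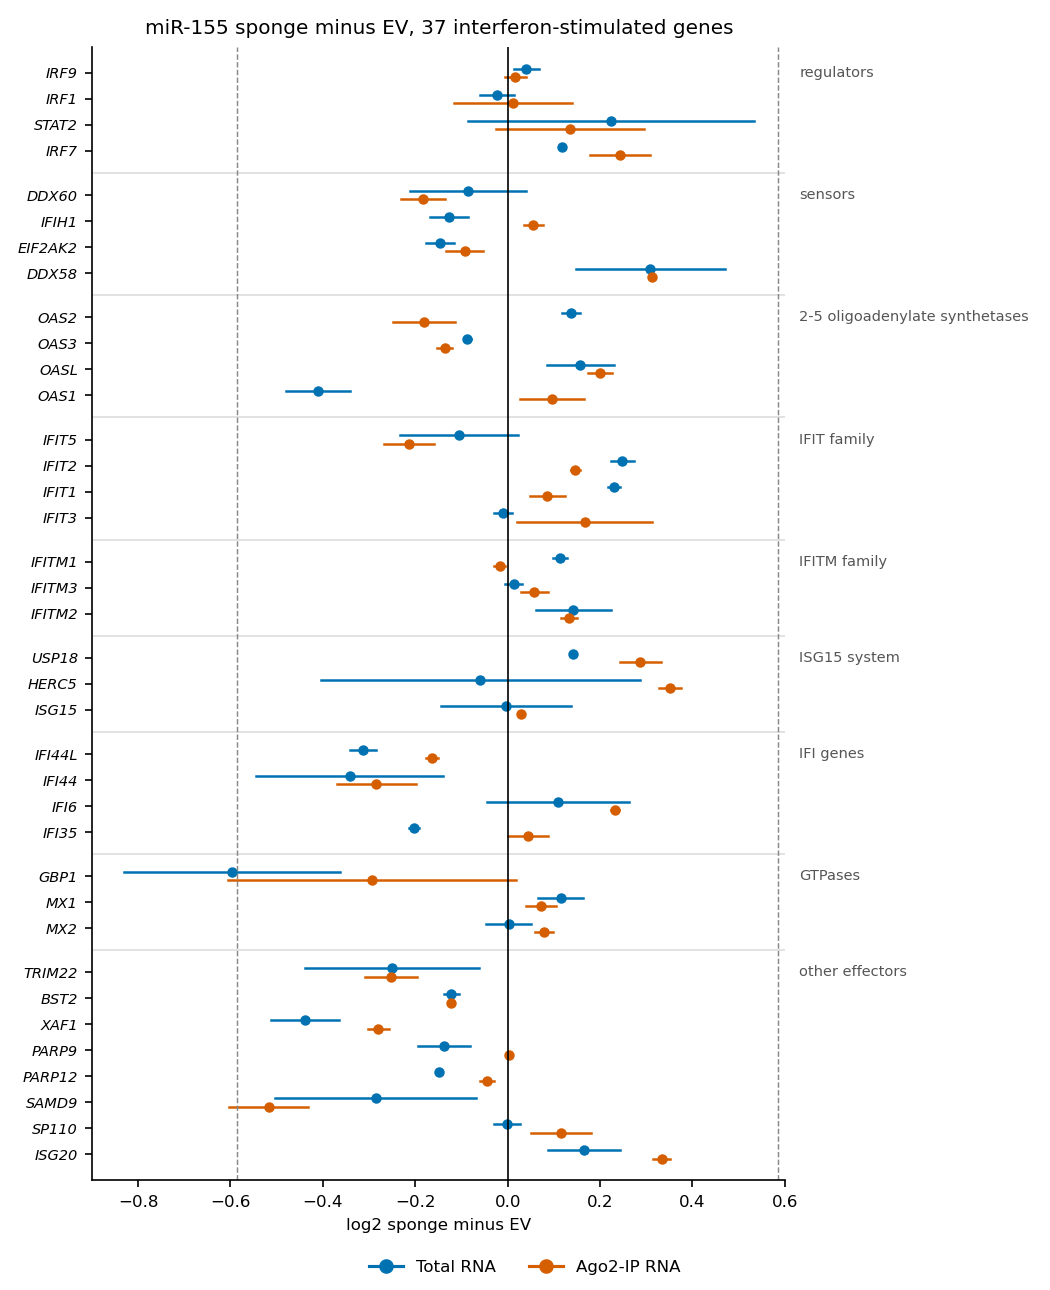
Log2 difference of miR-155 sponge minus EV cells for the 37 members in the T fraction (blue) and the IP fraction (orange). Points are the mean of both dyes, bars span the Cy3 and Cy5 values and dashed lines mark 1.5-fold; GBP1 in T is the single mean beyond a dashed line.

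A transcript that left Ago2 on effective inhibition of miR-155 would have a lower IP/T ratio in sponge than in EV cells. The study proposes that inhibition by this sponge was incomplete. The change in log2 IP/T ratio, sponge minus EV, had a median of 0.045 ± 0.025 over the members and 0.0087 ± 0.014 over all genes. By 1.5-fold or more, 0 members were higher (against 1.01% of all genes) and 0 lower (against 0.973%). The 3 enriched members changed by -0.024 ± 0.0066 (IRF9), 0.035 ± 0.13 (IRF1) and -0.11 ± 0.10 (IFIT5). The largest decrease was that of OAS2, -0.32 ± 0.12, and the largest increase that of OAS1, 0.51 ± 0.20. These counts and extremes hold for the brightest probe of each gene. Of the dimmer probes, SAMD9 had one at -0.73 ± 0.29, past 1.5-fold, and another at 0.13 ± 0.17. The second probe of OAS2 changed by -0.13 ± 0.34 and that of MX2 by 0.51 ± 0.012.

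**Figure D5:**
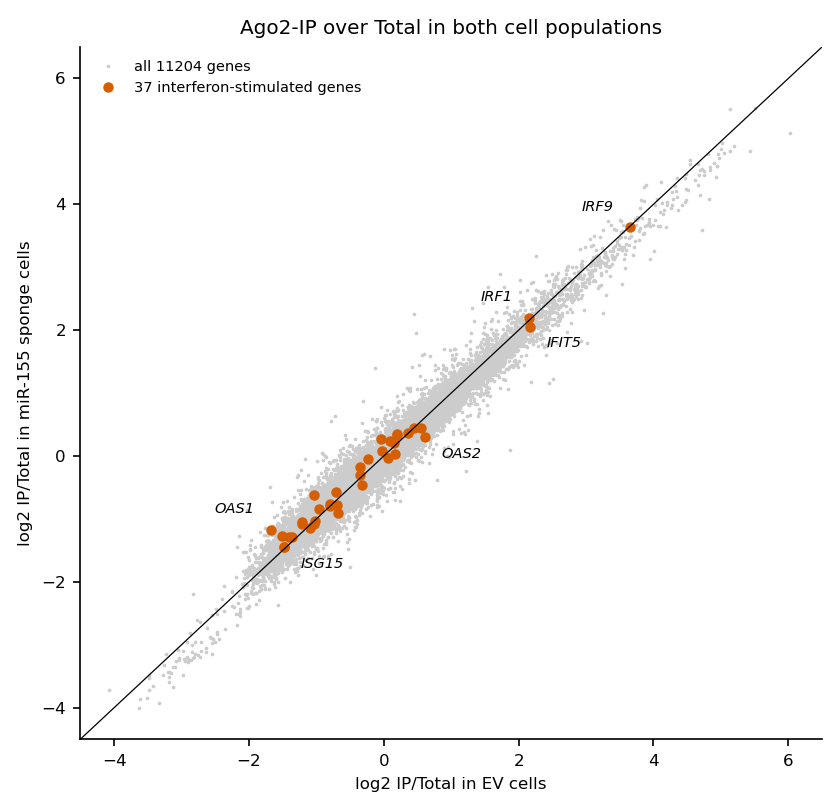
Log2 IP/Total in EV cells (horizontal) against miR-155 sponge cells (vertical) for all 11204 genes (grey) and the 37 members (orange), with the line of equality. The members follow the line, with IRF9 at 3.66 and 3.63 and OAS1 furthest above it at -1.68 and -1.17.

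The other genes of the pathway were taken from lists of names. Of 16 genes of interferon receptors and signalling 15 were measured, with a median log2 IP/T ratio of 0.41 ± 0.015 in EV cells, and 4 (26.7%, against 18.1% of all genes in EV cells) were enriched at least 2-fold in both cell populations. SOCS1, the inhibitor of JAK kinases and a commonly named miR-155 target, had 4.35 ± 0.18 in EV and 4.11 ± 0.56 in sponge cells. It differed by -0.017 ± 0.20 in T and -0.26 ± 0.18 in IP. IFNLR1, a subunit of the type III interferon receptor, was the single gene of the list past 1.5-fold in T, higher in sponge cells by 0.74 ± 0.47, and its log2 IP/T ratio went from 2.46 ± 0.30 in EV to 1.84 ± 0.090 in sponge cells. Its probe was well above background in 6 of 8 channels, being dim in 1 T channel of each cell population. IFNAR1, a type I receptor subunit, had 0.067 ± 0.29 and -0.022 ± 0.22. IFNAR2 was not kept. Its probe passed detection with 5 channels well above background, so the dye filter or a missing channel value removed it.

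Of 12 interferon genes, 11 had a probe and 1, IFNL2, passed the filters. Among 19 sensing genes upstream of interferon, 12 were measured, with a median log2 IP/T ratio of 0.19 ± 0.039 in EV cells. The adaptor MYD88 had 0.69 ± 0.14 in EV and 0.73 ± 0.12 in sponge cells, and differed by -0.21 ± 0.12 in T and -0.17 ± 0.14 in IP. The kinase IKBKE was well above background in 8 channels but failed the dye filter. Of 40 further interferon-stimulated genes 35 were measured, with a median of -0.37 ± 0.28 in EV cells, against -0.36 for the members. Of these, 5 were enriched at least 2-fold (14.3%, against 18.1% of all genes) and 4 were depleted (11.4%, against 18.7% of all genes and 32.4% of the members).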

How the data were processed

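The authors deposited, per the file headers, Agilent Feature Extraction output with 1 processed intensity per spot and dye (41000 probes, 4 arrays), and a table of normalised log2 values. The submitters' processing notes name version 10.5.1.1. Here control and outlier spots were left out, spots of a probe were averaged. Following the study's methods, log2 processed signals were then quantile normalised over the 8 channels. Probes were kept if well above background in at least 4 channels and within 2-fold between dyes (22471 probes). Quantile normalisation makes every difference relative to the other transcripts. Accessions were named through RefSeq (GRCh38.p14, names only); 58.4% of probes received a symbol. Each gene was represented by the brightest of its kept probes.

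Dyes were technical measurements of 1 sample, so no test was made. Members and lists were chosen with earlier results of these data known. Full values were given for members detected in all channels among the 6 highest or 6 lowest EV IP/T ratios or the 5 largest differences either way in T or IP. Of the pathway lists, genes whose mean difference in T or IP was at least 1.5-fold with one sign in both dyes were named, and SOCS1, IKBKE, MYD88, IFNAR1 and IFNAR2; another gene of this rule is not reported here. Python 3.11.15 (pandas 2.3.3), R 4.3.3 and limma 3.58.1 were used, tested on simulated data. The 14 alternatives covered scaling, background correction (normexp, offset 50), the authors' log2 values, filters, single dyes or orientations, and choice of probe. No spot was saturated (0 in each channel). The number of arrays limits the precision.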

Additional observations from a re-analysis of the deposited data

Results flagged for a closer look

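For 6 members an effect ran in opposite directions in both dyes or both orientations of the groups compared. No share of all genes stands beside this count, so it does not set the members apart, and several of the values lie near 0. The difference between the 2 effects was not tested. In sponge minus EV cells, OAS1 was lower in T (-0.41) and higher in IP (0.096), IFI35 was lower in T (-0.20) and higher in IP (0.044), and IFIH1 was lower in T (-0.13) and higher in IP (0.056), all as log2 differences. OAS2 was higher in T (0.14) and lower in IP (-0.18), as was IFITM1 (0.11 in T and -0.017 in IP). The second OAS2 probe did not show this, at 0.24 in T and 0.11 ± 0.28 in IP. PARP12, an ADP-ribosyltransferase, had a log2 IP/T ratio of -0.033 in EV and 0.072 in sponge cells.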

How the results depend on the processing

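IRF9, IRF1 and IFIT5 passed 2-fold enrichment in 14 of 14 alternatives in both cell populations, while the number of depleted members depended on the background correction. So did the share of all genes enriched in EV cells, 18.1% in the main setting and 9.56% and 11.0% with the 2 normexp settings. With normexp and quantile normalisation, 6 members were depleted in EV cells and 5 in sponge cells; with loess and Aquantile, 4 and 4. All genes shifted too, their median log2 IP/T ratio in EV cells going from -0.16 to -0.058 and -0.0059. Relative to it the members lay at -0.19, -0.14 and -0.16. In sponge cells the members lay at -0.32, -0.11 and 0.017 relative to all genes, so this gap did not hold across settings. It was -0.025 on the arrays with IP in Cy3. The members' own medians became -0.20 and -0.16 in EV cells and -0.17 and 0.014 in sponge cells, the last with a changed sign, and the cause was not tested. In EV cells the median was -0.68 with detection in all 8 channels and -0.55 on the arrays with IP in Cy5, and in sponge cells -0.12 on those with IP in Cy3. Cy5 alone and Cy3 alone gave medians from -0.44 to -0.34 in EV cells. The median level in EV T, 10.85 as log2 signal, was 9.11 and 9.07 with the 2 normexp settings and 10.66 with the mean of all probes.

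The median difference in T was -0.086 with Cy5 alone, -0.0053 with Cy3 alone, and -0.086 on the arrays with IP in Cy3. In IP it was 0.031 and 0.018 with the 2 normexp settings, 0.047 with the authors' values, 0.056 with detection in all channels, 0.036 with a dye filter of 1.5-fold, 0.027 with Cy5 alone or IP in Cy5 and 0.029 with Cy3 alone or IP in Cy3. The median change in IP/T was 0.089 with Cy5 alone, 0.034 with Cy3 alone and 0.076 on the arrays with IP in Cy3. GBP1 fell below 1.5-fold in T, leaving 0 members, with scaling to the 75th percentile, both normexp settings, Cy3 alone or the arrays with IP in Cy5, and detection in all channels left 0 because it removed GBP1. In IP, 1 member was lower by 1.5-fold with Cy5 alone or IP in Cy5 (GBP1), and 1 with Cy3 alone, IP in Cy3 or the probe of highest IP/T (SAMD9). Of 1228 further values for named members, 1080 moved by less than the spread between dyes and 148 by more. Part of the 1080 could not have moved by more. A single-dye difference or single-orientation IP/T ratio always lies within that spread of its mean. Detection in all channels was a condition for these members, so that filter left them unchanged. Of the 148, 14 went to the other sign, such as OAS1 in IP (-0.011) and IRF9 in T (-0.022), both with normexp and quantile normalisation. With that setting the EV log2 IP/T ratio of HERC5 was -0.22 and that of STAT2 -0.16. No paired analysis was possible because each group holds 1 RNA sample.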
